A study of Rattus norvegicus with 9 samples.

Results

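The Nrf2 antioxidant pathway was followed through 10 genes in rat brain RNA. They were taken by Ensembl ID out of 32883 IDs listed: the regulators Nfe2l2 (ENSRNOG00000001548) and Keap1 (ENSRNOG00000020878), the inducible enzymes Hmox1 (ENSRNOG00000014117) and Nqo1 (ENSRNOG00000012772), the glutathione synthesis genes Gclc (ENSRNOG00000006302) and Gclm (ENSRNOG00000013409), and the enzymes Sod1 (ENSRNOG00000002115), Sod2 (ENSRNOG00000019048), Cat (ENSRNOG00000008364) and Prdx1 (ENSRNOG00000017194). The rule names IDs and uses no measured value, though it was written with earlier results of these data known. RNA sequencing covered 9 libraries of brain tissue, 3 from each group: rats given a sham operation (sham), rats with an occluded middle cerebral artery (MCAO, which models a stroke), and rats with the same occlusion that were given Panax notoginseng, a medicinal plant (PN). The MCAO and PN groups thus share the occlusion, and the series as a whole concerns ischaemia followed by reperfusion. Strain, age, sex, brain region, hemisphere, time after occlusion and dose are not stated in the sources used here. Each library is named by its group and its sample code, for example MCAO 3B, and no label says whether the libraries of a group came from separate animals. If they did not, the p-values below measure the spread between these libraries, which may be technical.

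Nrf2, the product of Nfe2l2, is a transcription factor that is normally held in the cytoplasm by Keap1 and passed on for degradation. Oxidants and electrophiles modify cysteines of Keap1, Nrf2 then builds up in the nucleus, and with small Maf proteins it binds antioxidant response elements and raises transcription of detoxifying and antioxidant genes. The main control of Nrf2 is therefore on its protein, which RNA levels do not show. In brain this programme is known to be strongest in astrocytes and other non-neuronal cells, and Hmox1 is also induced in microglia and in macrophages that take up haem.

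The core of the antioxidant response element, TGACNNNGC, was looked for on both strands of promoter windows reaching from 250 bases before to 50 bases after each RefSeq gene start (build GRCr8). Of the 10 genes 9 had a window, matched by symbol, and 4 of these held the core. Among all 33469 windows of that length 12.1% held it. The matches are shown because these genes are read below as possible Nrf2 targets. Each is printed on the gene's own strand, 5′ to 3′, with the match in capitals. In Prdx1, Gclm and Sod2 the core reads on the opposite strand, so the capitals begin with GC.
Prdx1: cagggaaagcGCTGAGTCAtaccccgccg
Gclm: tgcggtttctGCTTAGTCAttgtcttcca
Sod2: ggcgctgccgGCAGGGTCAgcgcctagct
Nfe2l2: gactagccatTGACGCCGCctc

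The Prdx1 stretch lies at chr5:135383761-135383789 on the plus strand, with the first capital 135 bases before the start. That of Gclm lies at chr2:213031953-213031981 on the plus strand, 172 bases before the start, and that of Sod2 at chr1:50050185-50050213 on the minus strand, 35 bases before the start. In Nfe2l2 (chr3:81028950-81028971, minus strand) the core begins at base 39 after the start. The windows of Keap1, Nqo1, Gclc, Sod1 and Cat do not hold these letters. A match is a description of letters and not a binding site, and elements farther from the start lie outside these windows.

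Levels were given by the authors as FPKM, fragment numbers scaled to transcript length and to the fragments mapped, and the read depth behind them is unknown. The sum of FPKM ran from 387893 (MCAO 7A) to 445693 (PN 3A), and 13934 to 14687 genes per library reached 1 FPKM. Libraries did not group cleanly by label. Across the 15051 genes tested, 7 of 9 libraries correlated best with a library of another group, and the lowest correlation of all was between MCAO 7A and PN 3A (Pearson r = 0.8707 across genes). The column names of the table begin with codes that no label explains, and no such code is shared between groups, so whatever it marks and the group cannot be told apart. PN 3A and sham 9A begin unlike the other libraries of their groups. The tissue could not be checked against cell type markers, since only the IDs of the 10 genes came with names. In bulk tissue, fewer cells of a type and less RNA per cell cannot be told apart.

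All 10 genes were expressed in every library, at means that spanned the middle to the top of the range. FPKM is scaled to length, so these levels can be set side by side between genes. Sod1, the cytosolic copper-zinc superoxide dismutase, was highest, at 148 ± 35.1 FPKM (SD over 9 libraries), above 97.4% of the genes tested. Prdx1, a peroxiredoxin that removes hydrogen peroxide, followed at 90.2 ± 19.4 FPKM, and Sod2, the mitochondrial manganese superoxide dismutase, at 57.6 ± 4.76 FPKM. Cat, catalase of the peroxisome, stood at 32.1 ± 7.33 FPKM, Gclc at 24.4 ± 2.31, Keap1 at 22.9 ± 2.78 and Nfe2l2 at 14.1 ± 3.98. Gclm (10.1 ± 2.39 FPKM), Hmox1 (9.05 ± 6.57) and Nqo1 (8.40 ± 2.32) were lowest, near the median of 10.4 FPKM over all genes tested.

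Not all neighbours in this order were separated. Sod1 was above Prdx1 in 9 of 9 libraries, Sod2 above Cat in 9 of 9 and Keap1 above Nfe2l2 in 9 of 9. Gclc was above Keap1 in only 4 of 9 libraries, and Hmox1 above Nqo1 in 4 of 9. Sod2 and Cat were the only neighbours whose ranges over the 9 libraries did not overlap.

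Hmox1 varied far more than the rest. Its level in the highest library was 12.05 times that in the lowest, a coefficient of variation of 72.6%, larger than that of 93.7% of the genes tested. Sod2 (8.27%), Gclc (9.46%) and Keap1 (12.2%) were at the other end, with a coefficient of variation larger than that of only 1.51%, 2.90% and 7.57% of genes. The other 6 genes lay between 21.6% and 28.2%, close to the median of 27.8% over all genes tested.

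**Figure D1:**
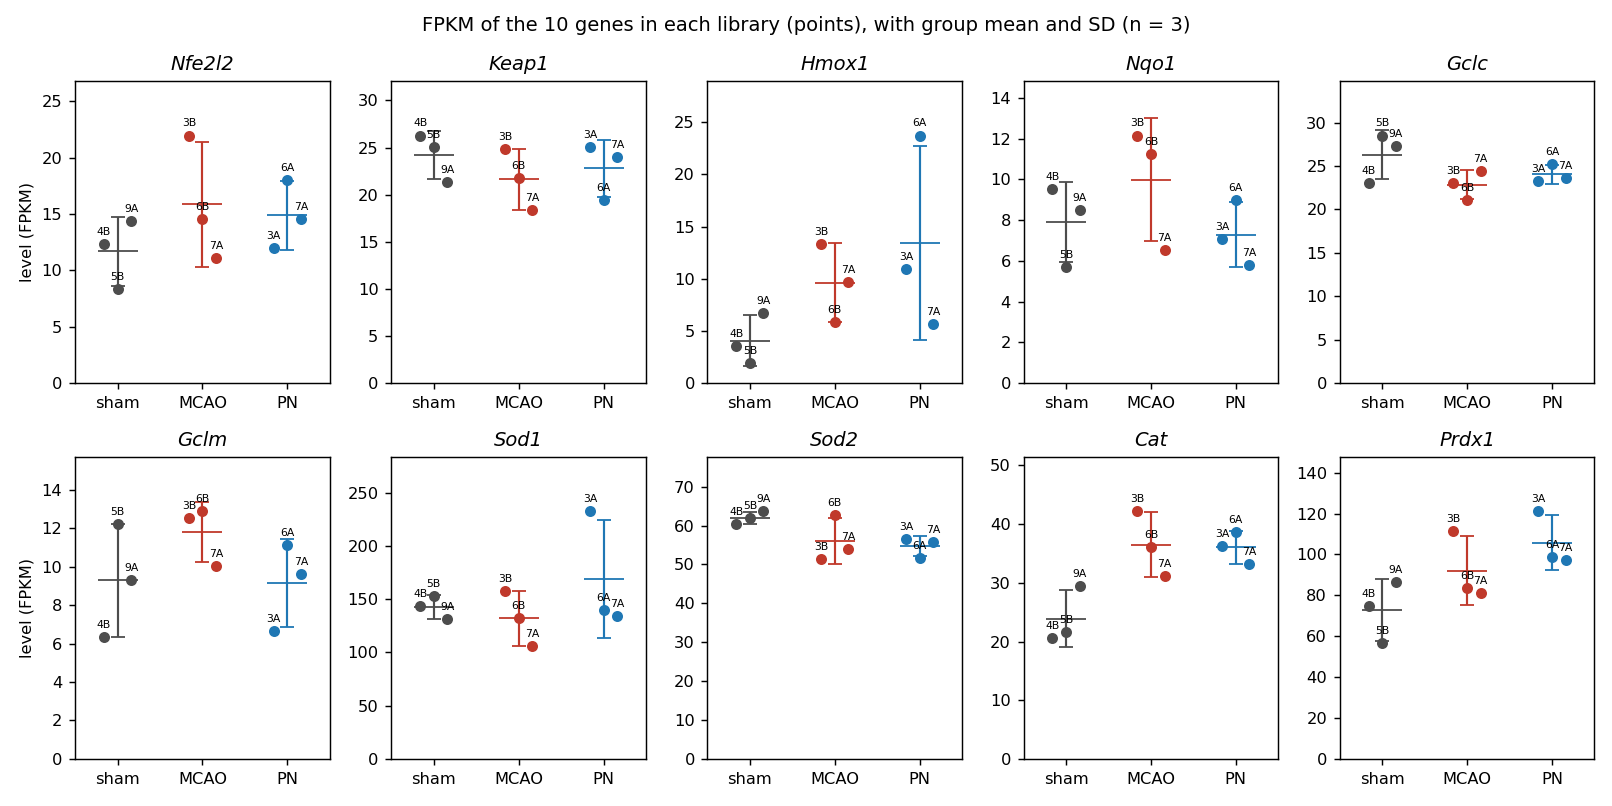
Level in FPKM (vertical axis, from 0, scaled per panel) of each of the 10 genes in the 9 libraries, by group, with the sample code beside each point; bars give the group mean and SD (n = 3). Cat is higher in all 6 MCAO and PN libraries than in any sham library, and Hmox1 ranges from 1.97 FPKM in sham 5B to 23.7 FPKM in PN 6A.

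Group differences below are on the log2(FPKM + 1) scale, from 1 limma fit over all 15051 genes and 9 libraries, with Benjamini-Hochberg adjustment over all of these genes and a threshold of 0.05. On this scale the change of low genes is understated, and a 2-fold change below means 2-fold in FPKM + 1. No difference of the 10 genes passed this threshold in any comparison. The values are therefore given as measured levels with their intervals.

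Values are given in the order 4B, 5B and 9A for sham, 3B, 6B and 7A for MCAO, and 3A, 6A and 7A for PN. The regulators were not separated between groups: the libraries of each group overlapped with those of the others. Nfe2l2 was at 12.3, 8.38 and 14.3 FPKM in sham, at 21.9, 14.5 and 11.1 FPKM in MCAO, and at 11.99, 18.0 and 14.6 FPKM in PN. The highest library was in the MCAO group, yet MCAO 7A lay below 2 of 3 sham libraries. The fitted log2 difference of MCAO from sham was 0.39 (standard error 0.28, 95% interval -0.24 to 1.02, adjusted p = 0.617), and it was 0.14 without MCAO 3B, 0.19 without sham 5B and 0.61 without MCAO 7A. For PN against MCAO it was -0.06 (interval -0.68 to 0.57, adjusted p = 0.948), and for PN against sham 0.34 (interval -0.29 to 0.97, adjusted p = 0.974).

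Keap1, the adaptor that presents Nrf2 to a ubiquitin ligase, was at 26.3, 25.0 and 21.3 FPKM in sham, at 24.9, 21.8 and 18.4 in MCAO, and at 25.0, 19.4 and 24.0 in PN. Its 3 groups covered nearly the same range. The log2 difference of MCAO from sham was -0.16 (interval -0.55 to 0.23, adjusted p = 0.745). The interval excludes a 2-fold change in all 3 comparisons for Keap1, but only in PN against MCAO and PN against sham for Nfe2l2.

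Hmox1 encodes haem oxygenase 1, the inducible enzyme that breaks down haem to biliverdin, iron and carbon monoxide. It was at 3.59, 1.97 and 6.71 FPKM in sham. In MCAO 3B, 6B and 7A it was at 13.4, 5.86 and 9.68 FPKM, and in PN at 10.9, 23.7 and 5.63 FPKM. The 4 libraries MCAO 3B, MCAO 7A, PN 3A and PN 6A were above every sham library, while MCAO 6B and PN 7A lay between sham 4B and sham 9A.

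These Hmox1 levels gave the largest fitted differences from sham of the 10 genes, with wide intervals. The group means were 4.09 ± 2.41 FPKM in sham, 9.63 ± 3.75 in MCAO and 13.4 ± 9.30 in PN (SD, n = 3 each). The log2 difference was 1.11 for MCAO against sham (standard error 0.51, interval -0.04 to 2.25, adjusted p = 0.463) and 1.41 for PN against sham (interval 0.26 to 2.55, adjusted p = 0.974). Array weights, which weight libraries by their fit, were 6.19 for PN 7A, the PN library with the lowest Hmox1. They were 0.345 for PN 3A and 0.664 for PN 6A. With these weights the value for PN against sham was 0.63, and without PN 6A it was 0.91. For PN against MCAO it was 0.30 (interval -0.84 to 1.44, adjusted p = 0.828), and this value was -0.19 without PN 6A, 0.76 without PN 7A and -0.09 with the code letter in the fit. Sample codes end in A or B, and all PN codes end in A. Libraries whose code ends in B allow a comparison of MCAO with sham within 1 letter: Hmox1 averaged 9.61 FPKM in 2 MCAO and 2.78 FPKM in 2 sham libraries. Among those ending in A it was 9.68 FPKM in the 1 MCAO library, 6.71 FPKM in the 1 sham library and 13.4 FPKM over the 3 PN libraries. What the letter marks is not given, and its part in the result was not tested beyond these values and that fit.

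Nqo1, a quinone reductase often used as a readout of Nrf2, did not follow the same order as Hmox1. It was at 9.53, 5.72 and 8.49 FPKM in sham, at 12.2, 11.2 and 6.54 in MCAO, and at 7.09, 8.99 and 5.81 in PN. MCAO 3B and MCAO 6B were above all other libraries, but MCAO 7A was below 2 of 3 sham libraries. The log2 difference was 0.28 for MCAO against sham (interval -0.34 to 0.90, adjusted p = 0.709) and -0.38 for PN against MCAO (interval -0.9997 to 0.24, adjusted p = 0.566). Leaving out 1 library moved the first value between 0.093 (sham 5B) and 0.53 (MCAO 7A) and the second between -0.63 (MCAO 7A) and -0.23 (MCAO 3B). The PN and sham levels differed by -0.10 (interval -0.72 to 0.52, adjusted p = 0.988).

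Gclc and Gclm encode the catalytic and the modifier subunit of glutamate-cysteine ligase, the rate-limiting enzyme of glutathione synthesis. Gclc was steady, at 23.1, 28.5 and 27.3 FPKM in sham, at 23.0, 21.1 and 24.4 in MCAO, and at 23.2, 25.3 and 23.7 in PN. Its log2 difference was -0.19 for MCAO against sham (interval -0.52 to 0.13, adjusted p = 0.637) and 0.07 for PN against MCAO (interval -0.25 to 0.40, adjusted p = 0.854). A 2-fold change of Gclc lay outside the interval in all 3 comparisons.

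Gclm was less even between libraries. It was at 6.35, 12.2 and 9.30 FPKM in sham, at 12.5, 12.9 and 10.02 in MCAO, and at 6.64, 11.1 and 9.64 in PN. Sham 4B and PN 3A were the low libraries, and MCAO 3B and 6B the high ones. The log2 difference was 0.35 for MCAO against sham (interval -0.23 to 0.93, adjusted p = 0.629), -0.36 for PN against MCAO (interval -0.94 to 0.23, adjusted p = 0.568) and -0.01 for PN against sham (interval -0.59 to 0.58, adjusted p = 0.998). The first of these was 0.13 without sham 4B and 0.55 without sham 5B, and the second -0.17 without PN 3A.

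The superoxide dismutases turn superoxide into hydrogen peroxide. Sod1 was at 143, 153 and 132 FPKM in sham, at 158, 132 and 106 in MCAO, and at 233, 140 and 134 in PN. PN 3A alone stood above all other libraries. The log2 difference of PN from sham was 0.20 (interval -0.34 to 0.73, adjusted p = 0.985) and turned to -0.06 without PN 3A. For MCAO against sham the value was -0.13 (interval -0.66 to 0.41, adjusted p = 0.857), and for PN against MCAO 0.32 (interval -0.22 to 0.86, adjusted p = 0.572), which was 0.067 without PN 3A.

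Sod2 varied least over the 9 libraries. It was at 60.5, 61.9 and 63.7 FPKM in sham, at 51.3, 62.7 and 54.0 in MCAO, and at 56.5, 51.7 and 55.9 in PN. All 3 PN libraries were below all 3 sham libraries, and MCAO 6B lay among the sham libraries. The distance was small: the log2 difference was -0.18 for PN against sham (standard error 0.14, interval -0.49 to 0.13, adjusted p = 0.974) and -0.15 for MCAO against sham (interval -0.46 to 0.16, adjusted p = 0.693).

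Catalase, which splits hydrogen peroxide into water and oxygen, gave the clearest separation. Cat was at 20.6, 21.6 and 29.5 FPKM in sham. It was at 42.2, 36.2 and 31.1 FPKM in MCAO, and at 36.2, 38.7 and 33.1 FPKM in PN. All 6 libraries with the occlusion were above all 3 sham libraries, although sham 9A (29.5 FPKM) and MCAO 7A (31.1 FPKM) came close to each other.

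The group means of Cat were 23.9 ± 4.84 FPKM in sham, 36.5 ± 5.54 in MCAO and 36.0 ± 2.79 in PN (SD, n = 3 each). The log2 difference was 0.60 for MCAO against sham (standard error 0.18, interval 0.19 to 1.01) and 0.59 for PN against sham (interval 0.18 to 0.998). Neither passed after adjustment (limma, adjusted p = 0.364 and 0.974). PN differed from MCAO by -0.01 (interval -0.42 to 0.40, adjusted p = 0.986), so for this comparison a change of 2-fold in either direction lay outside the interval. Within the letter B, Cat averaged 39.2 FPKM in 2 MCAO and 21.1 FPKM in 2 sham libraries. Within the letter A the 1 MCAO library was at 31.1 FPKM, the 1 sham library at 29.5 FPKM and the 3 PN libraries averaged 36.0 FPKM. The distance between MCAO and sham was thus larger within B than within A, and this was not tested.

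Prdx1 was at 74.8, 56.7 and 86.7 FPKM in sham, at 111, 83.8 and 81.3 in MCAO, and at 121, 98.7 and 97.2 in PN. The 3 PN libraries were above the 3 sham libraries, and the MCAO libraries spread over both, with MCAO 6B and 7A below sham 9A. The group means were 72.7 ± 15.1 FPKM in sham, 92.1 ± 16.7 in MCAO and 106 ± 13.4 in PN (SD, n = 3 each). The log2 difference was 0.55 for PN against sham (standard error 0.20, interval 0.09 to 1.01, adjusted p = 0.974), 0.34 for MCAO against sham (interval -0.11 to 0.80, adjusted p = 0.551) and 0.20 for PN against MCAO (interval -0.25 to 0.66, adjusted p = 0.682). The value for MCAO against sham was 0.18 without sham 5B and 0.20 without MCAO 3B, and that for PN against MCAO 0.10 without PN 3A and 0.35 without MCAO 3B. Within the letter B, Prdx1 averaged 97.6 FPKM in 2 MCAO and 65.7 FPKM in 2 sham libraries. Within the letter A it was lower in the MCAO library (81.3 FPKM) than in the sham library (86.7 FPKM).

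**Figure D2:**
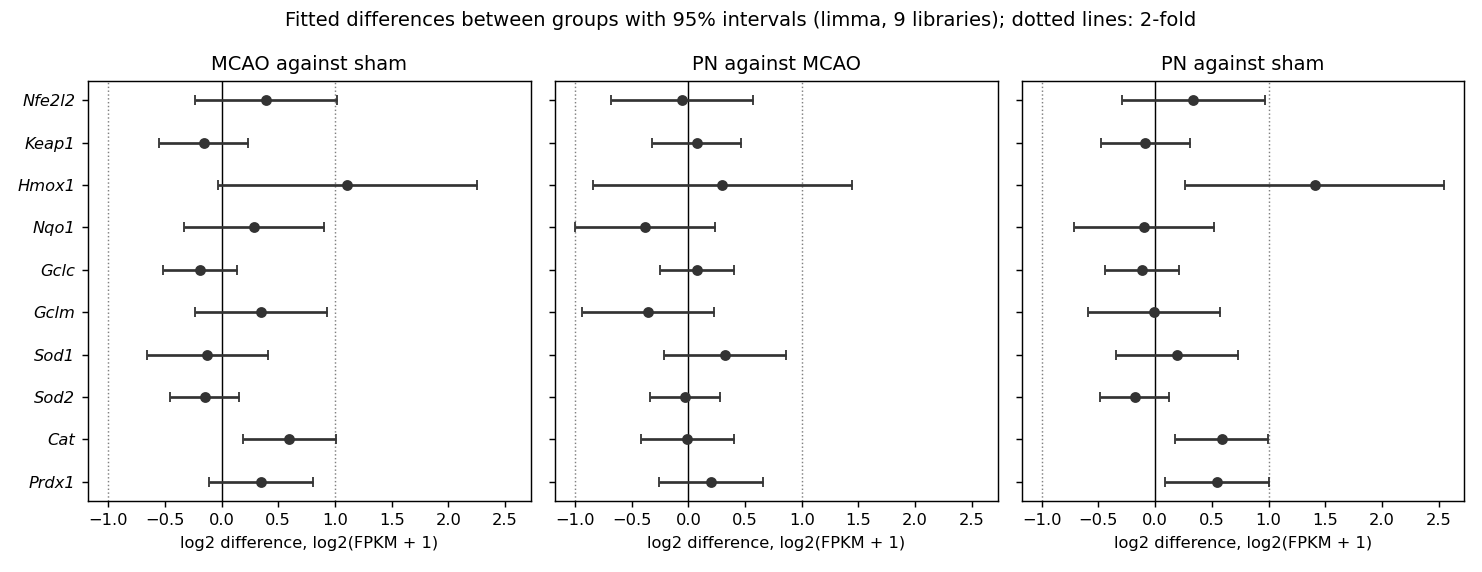
Fitted log2 difference of each gene on the log2(FPKM + 1) scale (horizontal axis) in 3 comparisons, with 95% intervals from limma; dotted lines mark a 2-fold change. The interval of Cat lies above 0 in MCAO against sham and in PN against sham, those of Hmox1 and Prdx1 do so in PN against sham, and all 10 intervals include 0 in PN against MCAO.

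MCAO was compared with sham to ask how the occlusion bore on the pathway. Cat and Hmox1 had the largest differences, and 6 of the 10 genes were higher and 4 lower in the fit. Of all genes tested 48.2% were higher. The median log2 difference of the 10 genes was 0.31, against -0.01 over all genes tested. By limma, 0 of the 10 genes were called at an adjusted p under 0.05, where 0.00664% of all genes tested were called. At an unadjusted p under 0.05 there was 1 gene, Cat, which was higher; of all genes 11.1% reached that p and 4.87% did so with a higher level. Cat was also the only 1 of the 10 for which all MCAO libraries were above all sham libraries, as were 8.59% of all genes tested, and 0 were below, against 11.0% of all genes. A count of 1 in 10 is near these shares. The number of genes at an unadjusted p under 0.05 was 2 without sham 9A (10.4% of all genes in the same fit), MCAO 6B (8.98%), PN 6A (12.2%) or PN 7A (9.81%). Separation is reached more easily with 1 library fewer. It was reached by 19.6% of all genes with 3 against 3 libraries in either direction but by 27.8% to 31.3% with 3 against 2. Of the 10 genes 5 were separated without MCAO 7A (31.3% of all genes), 4 without sham 9A (31.3%) and 3 without MCAO 6B (31.0%). There were 2 without sham 4B (30.4%), 2 without sham 5B (28.8%) and 1 without MCAO 3B (27.8%). The median was 0.14 without sham 5B or without MCAO 3B. The intervals of 7 of the 10 genes excluded a 2-fold change of FPKM + 1 in either direction, as did those of 61.8% of all genes.

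PN was compared with MCAO to ask whether the plant changed the pathway in rats with the occlusion. The design text names only a control group, read here as untreated MCAO. Cat, Sod2, Nfe2l2, Keap1 and Gclc had fitted log2 differences from -0.06 to 0.07. That of Nfe2l2 ran from -0.27 to 0.19 with 1 library left out. Nqo1 (-0.38) and Gclm (-0.36) were lower and Sod1 (0.32), Hmox1 (0.30) and Prdx1 (0.20) higher in PN in the fit. The intervals of all 10 genes included 0. The value of Sod1 was 0.067 without PN 3A. Of the 10 genes 0 were called (limma, smallest adjusted p = 0.566), against 0.00664% of all genes. No gene reached an unadjusted p under 0.05, which 13.2% of all genes did. In 0 of the 10 did the PN libraries lie all above the MCAO libraries, against 13.6% of all genes, and in 0 all below, against 6.69%. Without MCAO 7A, 1 gene, Nqo1, reached an unadjusted p under 0.05 (12.5% of all genes in the same fit) and 3 were separated (32.8% of all genes). Without MCAO 3B 2 were separated (31.8% of all genes), and without PN 6A 1 (37.0%). The median log2 difference was 0.03, with 0.07 over all genes. For 9 of the 10 genes the interval excluded a 2-fold change of FPKM + 1, against 60.7% of all genes. The exception was Hmox1, and Nqo1 was excluded only narrowly, with a lower bound of -0.9997.

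The question of PN against sham is which genes differed in treated rats with the occlusion. Hmox1 (1.41), Cat (0.59) and Prdx1 (0.55) had the largest log2 differences, all higher in PN. Of the 10 genes 0 were called (limma, smallest adjusted p = 0.974), against 0.0199% of all genes. These 3 genes reached an unadjusted p under 0.05 by limma, where 4.25% of all genes did so and 3.40% with a higher level. PN libraries were all above sham libraries for 2 of the 10 genes, Cat and Prdx1, against 6.18% of all genes, and all below for 1, Sod2, against 2.53%. When the code letter was a covariate, 1 of the 10 genes reached an unadjusted p under 0.05 (2.17% of all genes) and the median log2 difference was 0.25; without sham 5B it was also 1 gene (1.68% of all genes), in both cases Cat. The median log2 difference of the 10 genes was 0.09 and that over all genes 0.04. This comparison shares the sham libraries with MCAO against sham and the PN libraries with PN against MCAO, so the 3 are not independent.

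Since MCAO and PN share the occlusion, both were also set together against sham, a comparison added after the values were seen. Cat was higher in 6 of 6 libraries with the occlusion than in any sham library, with a log2 difference of 0.59 (standard error 0.16, interval 0.24 to 0.95). Hmox1 was higher than all sham libraries in 4 of 6, with a difference of 1.26 (interval 0.27 to 2.25), and Prdx1 in 4 of 6, with 0.45 (interval 0.05 to 0.84). None of the 10 was called (limma, adjusted p = 0.716 for Cat and for Hmox1, and 0.735 for Prdx1), against 0.0133% of all genes. An unadjusted p under 0.05 was reached by these 3 genes, by 6.49% of all genes, and by 4.33% of all genes with a higher level. Complete separation upward held for 1 of the 10 genes and for 1.51% of all genes, and downward for 0 of the 10 and 0.718% of all genes. Cat ranked 59 by p among the 15051 genes. The number of genes at an unadjusted p under 0.05 was 1, Cat, without sham 5B (2.74% of all genes) and likewise with the code letter as a covariate (4.86%). Complete separation held for 2 genes without sham 4B (7.99% of all genes), 2 without MCAO 6B (4.05%) and 3 without sham 9A (8.44%).

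Some libraries were high or low in several of the genes at once. MCAO 3B was the highest of the 9 libraries for Nfe2l2, Nqo1 and Cat and lay above the gene's median over 9 libraries in 8 of 10 genes. PN 6A did so in 7 of 10 and held the highest Hmox1. Sham 5B was the lowest library for Nfe2l2, Hmox1, Nqo1 and Prdx1, yet the highest for Gclc. Sham 9A, MCAO 7A and PN 7A were above the median in 2 of 10 genes each.

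**Figure D3:**
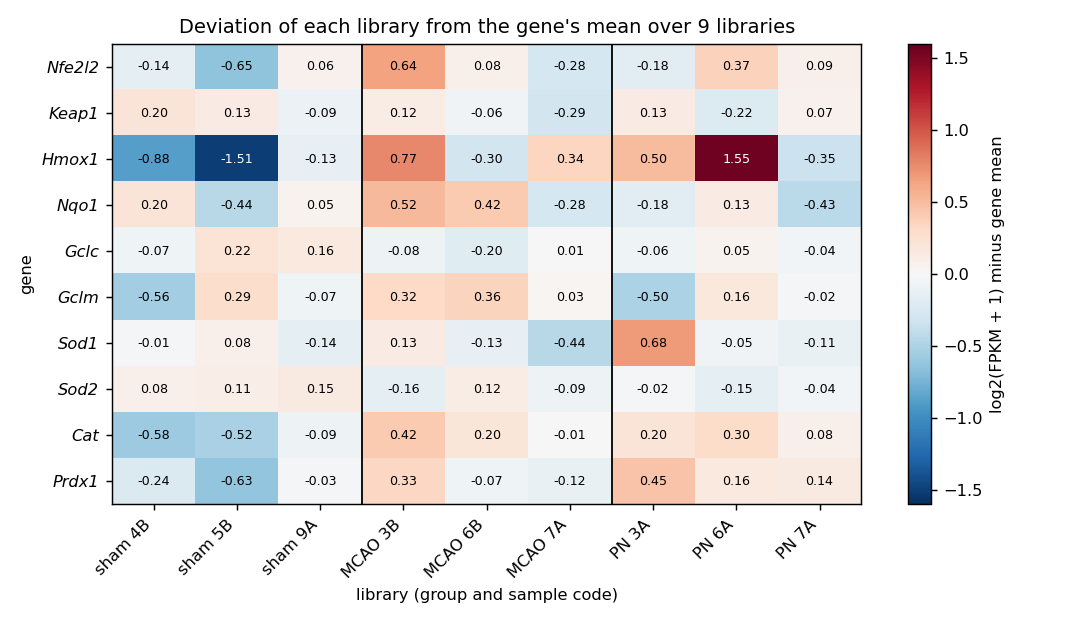
Deviation of each library (columns, by group) from the mean of each gene (rows) over the 9 libraries, on the log2(FPKM + 1) scale, in red where above and in blue where below. Hmox1 spans from -1.51 in sham 5B to 1.55 in PN 6A, while no deviation of Sod2 or Gclc exceeds 0.22.

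Ratios of genes within a library do not depend on how libraries are scaled, and 3 were formed. The ratio of Gclc to Gclm, the catalytic to the modifier subunit, was 3.63, 2.34 and 2.94 in sham, 1.84, 1.64 and 2.44 in MCAO, and 3.50, 2.27 and 2.45 in PN. MCAO libraries were at the low end, with MCAO 7A above sham 5B. The log2 ratio was lower by a difference of -0.59 in MCAO than in sham and higher by 0.47 in PN than in MCAO (exact permutation p = 0.2 each, two-sided, adjusted p = 0.6 over 9 ratio comparisons). The smallest p that 3 against 3 libraries can give is 0.1.

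The ratio of Keap1 to Nfe2l2 was 2.14, 2.99 and 1.49 in sham, 1.13, 1.495 and 1.65 in MCAO, and 2.09, 1.08 and 1.65 in PN. Keap1 thus exceeded Nfe2l2 in every library, with the groups overlapping. The log2 ratio differed by -0.59 between MCAO and sham (exact permutation p = 0.3, adjusted p = 0.6) and by 0.13 between PN and MCAO (exact permutation p = 0.8, adjusted p = 0.9). The ratio of Sod2 to Sod1 ranged from 0.243 in PN 3A to 0.507 in MCAO 7A. On the log2 scale it differed by -0.03 between MCAO and sham (exact permutation p = 0.9, adjusted p = 0.9). Between PN and MCAO it differed by -0.35 (exact permutation p = 0.4, adjusted p = 0.6), and by -0.12 without PN 3A. For PN against sham this difference was -0.38 (exact permutation p = 0.2, adjusted p = 0.6), and -0.15 without PN 3A. The log2 ratio of Gclc to Gclm differed by -0.12 between PN and sham (exact permutation p = 0.7, adjusted p = 0.9). That of Keap1 to Nfe2l2 differed by -0.45 (exact permutation p = 0.4, adjusted p = 0.6).

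Over the 9 libraries, the highest correlations were those of Cat with Hmox1 and with Prdx1, both with Pearson r = 0.83 on the log2(FPKM + 1) scale. Of the 45 pairs of the 10 genes 23 had a positive and 22 a negative r, and 0 passed after Benjamini-Hochberg adjustment over the 45 pairs (smallest adjusted p = 0.111 for Pearson and 0.186 for Spearman, exact permutation over all pairings), while 8 had an unadjusted p under 0.05 by Pearson and 5 by Spearman. All points of a pair come from the same libraries, so they share depth and tissue composition.

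Cat and Prdx1 had r = 0.83 (exact permutation p = 0.0043, adjusted 0.111) and Spearman rho = 0.85 (exact permutation p = 0.00607, adjusted 0.186), and r = 0.63 without sham 4B and 5B, the libraries farthest from the median of Cat. Hmox1 and Cat had r = 0.83 (exact permutation p = 0.00493, adjusted 0.111) and rho = 0.83 (exact permutation p = 0.00827, adjusted 0.186), and r = 0.79 without PN 6A and sham 5B. Hmox1 and Prdx1 had r = 0.78 (exact permutation p = 0.0155, adjusted 0.163) and rho = 0.78 (exact permutation p = 0.0172, adjusted 0.194), and r = 0.73 without the same libraries. With deviations from group means in place of levels, so that differences between groups drop out, r was 0.69, 0.65 and 0.55 for these pairs.

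The r of Nfe2l2 with Cat, Nqo1, Hmox1 and Prdx1 was lower without MCAO 3B and sham 5B, the libraries farthest from its median. Nfe2l2 and Cat had r = 0.75 (exact permutation p = 0.0181, adjusted 0.163) and rho = 0.68 (exact permutation p = 0.0503, adjusted 0.377), but r = 0.46 without MCAO 3B and sham 5B. Nfe2l2 and Nqo1 had r = 0.71 (exact permutation p = 0.029, adjusted 0.216) and rho = 0.63 (exact permutation p = 0.076, adjusted 0.38), but r = 0.33 without those libraries. Nfe2l2 and Hmox1 had r = 0.71 (exact permutation p = 0.0337, adjusted 0.216) and rho = 0.52 (exact permutation p = 0.162, adjusted 0.662), and r = 0.45 without them. For Nfe2l2 and Prdx1 r was 0.70 (exact permutation p = 0.0389, adjusted 0.219), rho 0.60 (exact permutation p = 0.0968, adjusted 0.436), and r = 0.17 without them. With deviations from group means r was 0.74 for Nfe2l2 with Cat, 0.81 with Nqo1, 0.62 with Hmox1 and 0.65 with Prdx1.

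Sod2 ran the other way from Hmox1, with r = -0.77 (exact permutation p = 0.0141, adjusted 0.163), rho = -0.63 (exact permutation p = 0.076, adjusted 0.38) and r = -0.70 without PN 6A and sham 5B. For this pair r was -0.55 with deviations from group means. Keap1 went with Sod1 (r = 0.63, exact permutation p = 0.0571, adjusted 0.286; rho = 0.78, exact permutation p = 0.0172, adjusted 0.194), with r = 0.48 without MCAO 7A and PN 6A. Nfe2l2 and Keap1 had r = -0.12, and Sod1 and Sod2 r = -0.05. The partners Gclc and Gclm had r = 0.11, and r = 0.58 with deviations from group means. Among the 4 genes with the element core in the promoter window, r was 0.70 for Nfe2l2 and Prdx1, 0.26 for Nfe2l2 and Gclm, -0.13 for Gclm and Sod2, -0.20 for Gclm and Prdx1, -0.55 for Nfe2l2 and Sod2 and -0.59 for Sod2 and Prdx1. In the same order, deviations from group means gave 0.65, 0.15, -0.0077, -0.44, -0.35 and -0.16. None of these pairs passed after adjustment, and shared regulation was not tested.

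**Figure D4:**
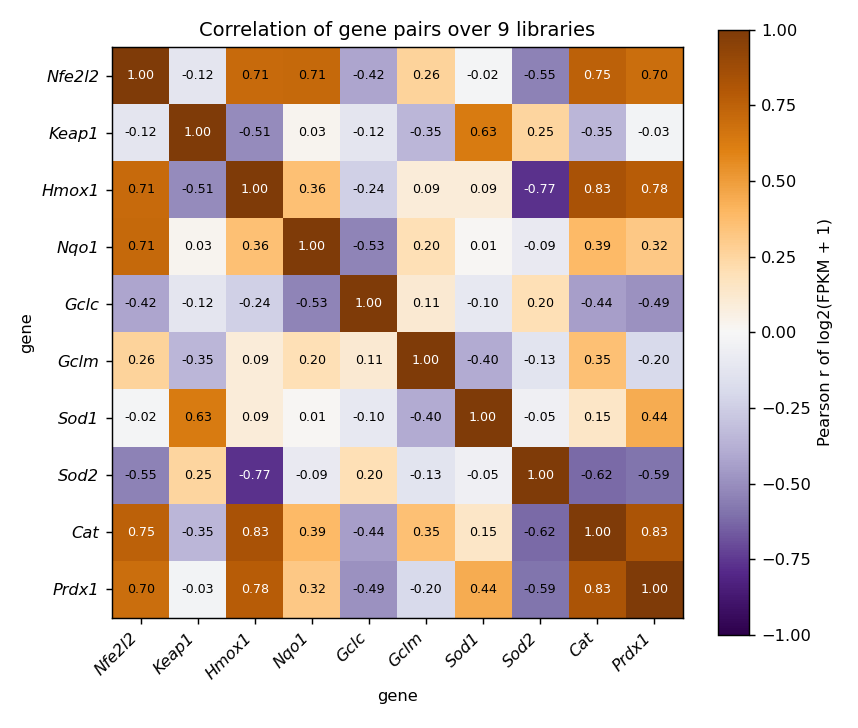
Pearson r of log2(FPKM + 1) over the 9 libraries for each pair of the 10 genes (rows and columns), in orange where positive and in purple where negative. The highest r is 0.83, for Cat with Prdx1 and for Hmox1 with Cat, and the lowest is -0.77, for Hmox1 with Sod2; none of the 45 pairs passed after adjustment.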

How the data were processed

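Brain RNA was prepared with Trizol, selected by poly(A) and sequenced on an Illumina HiSeq, per the labels' protocols. The values are FPKM as deposited by the authors in 1 table, per the file headers. The tools that the submitters' processing notes list are StringTie 1.3.1, HISAT2, Bowtie2 2.2.8 and fastp 0.18.0, with no roles. Build, annotation and strandedness: not given in the sources used here. Each column was tied to a sample by its code; for 7A, which belongs to 2 titles, the beginning of the column name decided. Depth is unknown.

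The 15051 genes that reached 1 FPKM in 3 or more of 9 libraries were tested on log2(FPKM + 1) with limma 3.58.1 (R 4.3.3), trend on, group means as the model, two-sided, adjusted by Benjamini-Hochberg. All 10 genes passed this filter. The fit was tested on simulated data. Exact permutation tests used Python 3.11.15 with scipy 1.17.1. Genes named are the 10 of the rule. Lists of other Nrf2 targets, partners, antioxidant enzymes and cell type markers were set by symbol but could not be applied: the gene table (GRCr8) held all 10 symbols and 0 Ensembl IDs. Members and lists were chosen with earlier results of these data known. The comparison of MCAO and PN together against sham and the fits without both 7A libraries were added after the data were seen.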

Additional observations from a re-analysis of the deposited data

How the results depend on the processing

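Of the 10 genes 0 were called by limma under the 21 alternatives fitted with it (19 to 21 per comparison). The other 3 alternatives bore on ratios and correlations alone. Over all genes tested, 0 to 5 were called in the limma fits, except 377 of 15051 for PN against MCAO with array weights. The smallest adjusted p of the 10 genes by limma ran from 0.232 to 0.683 for MCAO against sham and 0.155 to 0.896 for PN against MCAO. It ran from 0.429 to 0.9999 for PN against sham, and 0.328 to 0.999 for MCAO and PN together against sham. Of 667 values of single genes 631 kept their direction and 36 reversed, all with intervals that included 0 before the change. The causes were not tested. Some of the 667 values could not move. Another filter, or leaving out a library of neither group compared, leaves a difference as it was. So does a fit of only the 6 libraries compared. The same holds for the code letter in MCAO against sham and the code number as a block in PN against MCAO. The share that kept direction is thus no measure of stability. Cat kept an unadjusted p under 0.05 in 20 of 20 alternatives for MCAO against sham (log2 difference 0.49 to 0.75) and 20 of 20 for PN against sham (0.44 to 0.74). Hmox1 did so in 16 of 20 and Prdx1 in 17 of 20 for PN against sham. These counts include fits in which the difference could not move. That of Cat for MCAO against sham stayed at 0.597 without PN 3A, for example, and only its standard error could change. Read depth is unknown, so the limit it sets on low values such as those of Hmox1 could not be given.

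For MCAO against sham, 2 genes had an unadjusted p under 0.05 with median-of-ratios scaling (11.5% of all genes) or quantile normalization (11.7%). The count was also 2 with only the 6 libraries compared (13.6%). It was 2 again without PN 3A and sham 9A (13.6%), whose column names start unlike those of their group. Genes without overlap numbered 2 with quantile normalization (20% of all genes), 4 without PN 3A and sham 9A (31.3%) and 5 without both 7A libraries (31.5%), where Sod1 was at 0.020. For PN against MCAO, Keap1 was at -0.0067 and Gclc at -0.0071 with equal sums of FPKM, and at -0.0034 and -0.0041 with median-of-ratios scaling. Array weights, by far the largest for PN 7A, gave 1 gene at an unadjusted p under 0.05 (21.9% of all genes) and Hmox1 at -0.40. The code letter as a covariate gave Nfe2l2 0.0054, Hmox1 -0.091 and Gclc -0.0038. Nfe2l2 was at 0.080 without PN 3A and sham 9A; without both 7A libraries 3 genes did not overlap (42.9% of all genes) and Keap1 was at -0.074. For PN against sham, array weights gave Keap1 0.0037, Gclm 0.0078 and Sod1 -0.033. The letter gave 1 gene at an unadjusted p under 0.05 (2.17% of all genes), a median of 0.25, Keap1 0.11, Nqo1 0.10 and Gclm 0.076. Without PN 3A and sham 9A 7 genes did not overlap (36.7% of all genes), with Gclm at 0.21 and Sod1 at -0.12. That fit sets PN 6A and 7A against sham 4B and 5B, so group and code letter cannot be told apart. With so few libraries separation is also reached more easily. Nqo1 was at 0.038 without both 7A libraries. For MCAO and PN against sham, genes without overlap numbered 2 with quantile normalization (2.41% of all genes). They numbered 4 without PN 3A and sham 9A (16.2%). The letter left 1 gene at an unadjusted p under 0.05 (4.86% of all genes).

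Leaving out 1 library at a time gave these ranges. For MCAO against sham, 1 to 2 of the 10 genes had an unadjusted p under 0.05 (7.12% to 14.2% of all genes). Between 1 and 5 did not overlap (19.7% to 31.3% of all genes). The median was 0.14 to 0.44 and Sod1 -0.26 to 0.020. For PN against MCAO the counts were 0 to 1 (6.99% to 18.1% of all genes) and 0 to 3 (20.4% to 37%). Nfe2l2 was at -0.27 to 0.19, Keap1 -0.035 to 0.18, Hmox1 -0.19 to 0.76, Sod2 -0.089 to 0.053 and Cat -0.12 to 0.097. For PN against sham 1 to 3 genes had an unadjusted p under 0.05 (1.68% to 6.46% of all genes). Keap1 was at -0.17 to 0.022, Nqo1 -0.29 to 0.038, Gclm -0.23 to 0.19 and Sod1 -0.058 to 0.34. For MCAO and PN against sham 1 to 3 genes had an unadjusted p under 0.05 (2.74% to 9.98% of all genes). Between 1 and 3 did not overlap (2.5% to 8.44% of all genes). The log2 ratio of Gclc to Gclm was -0.31 to 0.039 for PN against sham, that of Keap1 to Nfe2l2 -0.083 to 0.40 for PN against MCAO, and that of Sod2 to Sod1 -0.15 to 0.17 for MCAO against sham.

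MCAO and PN share the code numbers 3, 6 and 7, but no label says that they pair the samples, and deviations of same-numbered libraries had r of 0.0638, -0.402 and -0.16 across genes. With the number as a replicate block in those 6 libraries, limma called 0 of the 10 genes (smallest adjusted p = 0.62, for Nqo1). Of all 14648 genes in that fit 0 were called. An unadjusted p under 0.05 was reached by 0 of the 10 genes and by 9.31% of all genes. The median log2 difference of the 10 genes stayed at 0.03, since each number occurs in both groups and the block cannot move a difference.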
